A study of Mus musculus with 12 samples.

Results

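Aortic valves of mice carrying a single functional copy of Notch1 and of Gata5 were compared with wildtype valves at postnatal day 10, across all genes of the deposited count table. The comparison uses 8 of the 12 libraries of the series: 4 labelled Notch1+/-;Gata5+/-, called double-heterozygous here, and 4 labelled wildtype. The other 4 libraries, labelled Notch1+/-;Gata5-/- and called Gata5-null here, shared the fit and so the estimate of the spread, and show where the double-heterozygous valves lay relative to valves with no Gata5 copy left. Since 3 valves were pooled per library, the pool is the unit of replication and differences between single animals are not seen. The labels give neither strain, sex nor the deleted part of each gene. No group carried a mutation in a single gene, so the contributions of Notch1 and Gata5 to a difference from wildtype cannot be told apart.

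Notch receptors are cleaved when a ligand on a neighbouring cell engages them, and the released intracellular domain joins the DNA-binding protein RBPJ to switch on genes of the Hes and Hey families. GATA factors are zinc finger proteins that bind GATA motifs, and Gata5 is active in the endocardium from which the valve cushions form. Mutations of either gene are known in human bicuspid aortic valve, and aortic valve malformation has been described in mutant mice.

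The totals were 18102969 to 21573022 counts in the double-heterozygous and 19206388 to 21450396 in the wildtype libraries. Levels are given as CPM, read counts scaled for depth by TMM, and 3 counts, the limit that a count of 0 allows, equal 0.141 to 0.156 CPM. Markers of valve interstitial cells, valve endothelium, smooth muscle and heart muscle were present in each of the 8 libraries, with Pdgfra at 219 to 270.3 CPM, Cdh5 at 88.0 to 139 CPM, Myh11 at 1648 to 2683 CPM and Myh6 at 6479 to 20089 CPM. RNA of smooth muscle and heart muscle was thus part of every pool, and in such bulk RNA fewer cells of a type and less RNA per cell cannot be told apart. Some markers of other cell types were at or near 0, such as Adipoq (0 to 1.69 CPM) of fat cells, though Plin1 of the same cells reached 21.3 CPM. Pigment cell markers ranged from Mlana (0 to 3.90 CPM) to Dct (34.7 to 60.5 CPM). Wildtype replicate 2 had 3208 genes at 0, against 1017 to 2056 in the other 7. Double-heterozygous replicate 4 had 0.728 CPM of Xist, the RNA of the inactive X chromosome, against 471 to 1849 CPM in the other 7, and its summed Y-linked genes were at 256 CPM against 90.1 to 198 CPM. Among the libraries that only shared the fit, Gata5-null replicate 3 had 6000 genes at 0 and a total of 13866604 counts.

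Neither targeted gene had a lower mean in the double-heterozygous valves. Notch1 was at 116, 159, 98.6 and 139 CPM in wildtype replicates 1 to 4 and at 182, 148, 162 and 194 CPM in the double-heterozygous libraries. The groups overlapped through wildtype replicate 2, and 3 of the 4 double-heterozygous libraries lay above every wildtype library (log2 fold change 0.42, SE 0.15, 95% interval 0.11 to 0.73, two-sided exact permutation p = 0.0571, where the smallest possible is 0.0286). The interval lies above 0 and does not include -1, the log2 value of a loss to 1 of 2 transcript copies. Since the labels do not say what the Notch1 allele lacks, the counts of the whole gene do not check that genotype. Notch1 in the Gata5-null libraries, which carry the same Notch1 label, was at 213, 207, 152 and 168 CPM, and the double-heterozygous minus Gata5-null difference was -0.11 (log2, SE 0.15).

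Gata5 was a gene of low counts here. Wildtype replicates 1 to 4 held 56, 18, 46 and 19 counts of it, and the double-heterozygous replicates 97, 112, 98 and 15 counts. Double-heterozygous replicate 4, the library with almost no Xist, lay below all wildtype libraries and the other 3 lay above them. The log2 fold change was 1.21 (SE 1.13, 95% interval -1.13 to 3.54, two-sided exact permutation p = 0.2286), or 1.56 without double-heterozygous replicate 4. A loss of 1 Gata5 copy, a log2 value of -1, lies inside the interval, and no such loss was detectable at this depth. All Gata5-null libraries had 0 counts.

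**Figure D1:**
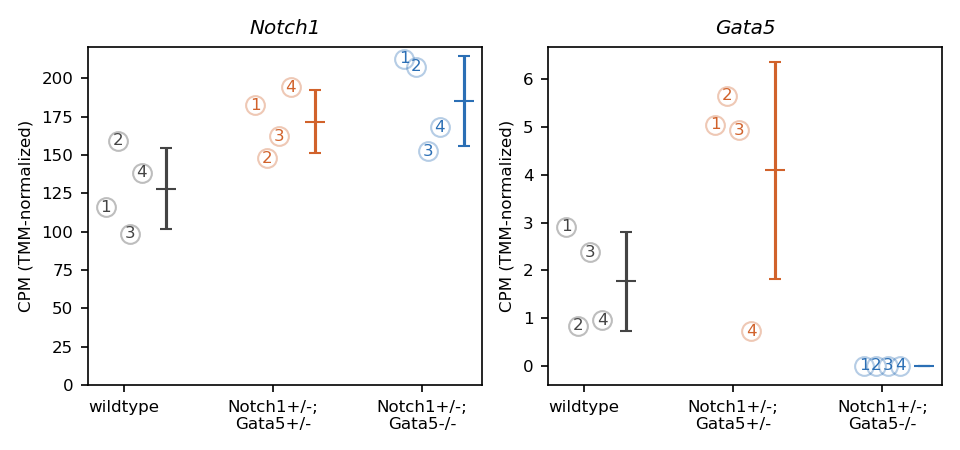
Levels of Notch1 and Gata5 (CPM, vertical axes) in each library of the 3 groups, numbered by replicate, with the mean and SD of 4 libraries as a bar beside them. Notch1 spans 98.6 to 159 CPM in wildtype and 148 to 194 CPM in double-heterozygous valves, and Gata5 in double-heterozygous replicate 4 stands at 0.728 CPM against 4.94 to 5.66 CPM in the other 3.

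Across the genome the double-heterozygous valves were hard to tell from wildtype. edgeR's quasi-likelihood test called 0 of 19346 genes (0%) at a Benjamini-Hochberg adjusted p under 0.05, and the adjusted p of every gene was 1. At an unadjusted p under 0.05 stood 242 genes (1.25%), below the 5% that evenly spread p-values would give, with 156 higher (0.806%) and 86 lower (0.445%) in double-heterozygous valves. Leaving out wildtype replicate 1, 3 or 4 moved this count to 384, 390 and 423, in that order. It was 534 without Gata5-null replicate 3 and 440 with only the 8 libraries of the comparison in the fit. The 4 libraries of one group lay entirely above or below those of the other for 433 genes (2.24%), of which 256 (1.32%) were higher and 177 (0.915%) lower in double-heterozygous valves. For values unrelated to group, 4 libraries against 4 separate in this way with a probability of 0.0286. The share of 2.24% is not above that, so a lack of overlap in a single gene is weak evidence. Log2 fold changes were above 0 for 50.3% of genes and below 0 for 49.7%, with a median of 0.0018.

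The intervals show what size of difference these libraries could miss. Among the 14271 genes with a mean log2 CPM of at least 1, the 95% interval of the log2 fold change lay within 1 of 0 for 63.0%, and 160 genes had an estimate beyond 1. For the remaining 37.0% of these genes the interval reached beyond 1 in at least 1 direction, a 2-fold difference. DESeq2 called 8 genes. One of them, Itih4, had counts in all 8 libraries (log2 fold change -0.80, DESeq2 adjusted p = 0.0489), and the other 7 were at 0 in all 4 libraries of 1 group and had counts in 1 to 3 libraries of the other.

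The double-heterozygous libraries were the most alike within a group. The median over these 14271 genes of the SD of log2 CPM was 0.279 in double-heterozygous, 0.338 in wildtype and 0.442 in Gata5-null libraries. For 8828 genes (61.9%) the SD was smaller in double-heterozygous than in wildtype valves. The wider groups held the libraries with the most genes at 0, wildtype replicate 2 (3208) and Gata5-null replicate 3 (6000). Their part in the spread was not tested. Spearman correlations across genes, given as a description, were 0.951 to 0.965 between double-heterozygous libraries, 0.929 to 0.959 between wildtype libraries and 0.926 to 0.962 between a library of each. The single-gene values described next are therefore often a narrow double-heterozygous group beside a wider wildtype one.

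**Figure D2:**
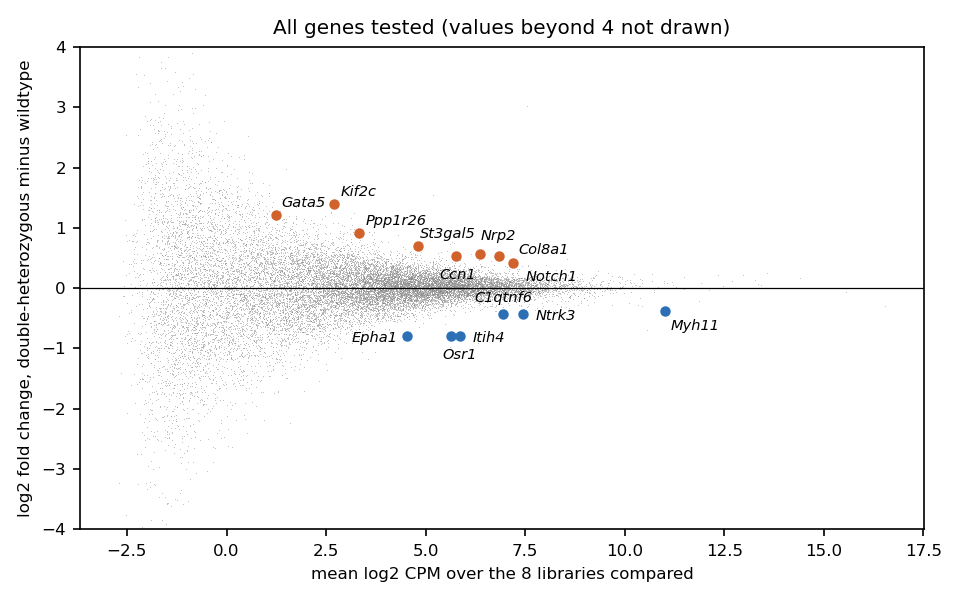
Log2 fold change of each gene, double-heterozygous minus wildtype (vertical axis), against its mean log2 CPM over the 8 libraries (horizontal axis), 1 grey point for each of 19238 genes, with 108 genes beyond 4 in either direction not drawn. Coloured points mark Notch1, Gata5 and the 12 genes named by rank of p, and the spread of the grey points narrows from left to right around a median of 0.0018.

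The lowest p belonged to Itih4, a plasma protein gene related to the heavy chains of inter-alpha-trypsin inhibitor and known mainly from liver. It was at 64.2, 74.1, 78.1 and 93.2 CPM in wildtype and at 40.4, 40.7, 51.2 and 46.3 CPM in double-heterozygous replicates 1 to 4. Every double-heterozygous library lay below every wildtype one, with a log2 fold change of -0.79 (SE 0.17, 95% interval -1.15 to -0.44), an unadjusted p of 0.000121 and an adjusted p of 1 in edgeR's quasi-likelihood test. The Gata5-null libraries stood at 26.5 to 41.0 CPM, and the double-heterozygous minus Gata5-null difference was 0.38 (SE 0.17, 95% interval 0.02 to 0.74), a difference that was not called. Its promoter is shown because it is the gene of smallest p in a comparison of valves mutant for a GATA factor. The 300 bases (RefSeq, GRCm38.p6, plus strand, chr14:30886226-30886525, 250 before to 50 after the start) hold 2 GATA hexamers on the reverse strand, in capitals, found by a search of both strands for AGATAA or AGATAG, and for the 2 hexamers with T in place of the leading A.
Itih4: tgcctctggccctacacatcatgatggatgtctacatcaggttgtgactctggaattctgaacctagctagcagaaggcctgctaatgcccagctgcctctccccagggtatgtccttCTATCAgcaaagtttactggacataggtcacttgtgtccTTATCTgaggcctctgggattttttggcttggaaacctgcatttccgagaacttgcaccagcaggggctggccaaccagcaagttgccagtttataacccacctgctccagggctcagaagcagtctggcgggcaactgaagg
At least 1 of these hexamers occurs in 29.8% of all 32851 RefSeq promoters, so such a match is common, and it is a match of letters and not a binding site.

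The other genes of smallest p among those with lower values in double-heterozygous valves were Osr1, Ntrk3, Epha1, C1qtnf6 and Myh11, the last of which is described with the contractile genes. Osr1, an odd-skipped family transcription factor of heart and kidney mesenchyme, was at 50.4, 83.7, 50.8 and 82.3 CPM in wildtype and 40.6, 42.7, 37.9 and 32.0 CPM in double-heterozygous libraries. Its 4 double-heterozygous libraries lay below every wildtype library (log2 fold change -0.80, SE 0.21). Ntrk3, the neurotrophin-3 receptor, was at 206, 222, 175 and 209 CPM against 146, 151, 167 and 137 CPM (-0.43, SE 0.12). Epha1, an ephrin receptor, was at 25.8, 42.4, 27.4 and 28.3 CPM against 16.8, 16.0, 20.2 and 18.4 CPM (-0.80, SE 0.25, or -0.61 without wildtype replicate 2). C1qtnf6, a secreted C1q and TNF related protein, was at 145, 166, 111 and 155 CPM against 106, 105, 105 and 110 CPM (-0.44, SE 0.14). For these 4 the double-heterozygous minus Gata5-null differences ran from -0.22 (Epha1) to 0.13 (Osr1) on the log2 scale, each with an interval that includes 0.

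Among genes with higher values, Col8a1 had the smallest p. This short-chain collagen of vessel walls and subendothelium was at 110, 78.8, 83.8 and 115 CPM in wildtype and at 151, 133, 154 and 124 CPM in double-heterozygous replicates 1 to 4 (log2 fold change 0.54, SE 0.16, 95% interval 0.21 to 0.86). Ccn1, a matricellular protein induced by serum and stretch, was at 49.9, 36.7, 37.5 and 58.5 CPM against 73.2, 62.1, 62.4 and 65.9 CPM (0.53, SE 0.17). In both, the lowest double-heterozygous library was above the highest wildtype library. Nrp2, a co-receptor of semaphorins and VEGF-C, was at 79.4, 43.3, 74.1 and 80.5 CPM against 97.1, 96.7, 114 and 101 CPM (0.56, SE 0.18, or 0.39 without wildtype replicate 2). St3gal5, the sialyltransferase that makes the ganglioside GM3, was at 21.2, 17.6, 21.0 and 28 CPM against 37.8, 34.4, 31.8 and 38.7 CPM (0.70, SE 0.21).

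Kif2c, a kinesin that takes microtubules apart at mitotic centromeres, was at 5.82, 2.53, 2.17 and 6.36 CPM in wildtype and 13.3, 11.8, 7.96 and 11.1 CPM in double-heterozygous libraries (log2 fold change 1.39, SE 0.44). Cell cycle genes as a list did not share this size of difference: 17 of 25 were above 0 with a median of 0.05, 0 had an unadjusted p under 0.05, and Mki67, the proliferation marker, was at 0.15 (SE 0.15). Ppp1r26, a regulatory subunit of protein phosphatase, was at 9.41, 5.91, 6.77 and 7.36 CPM against 13.6, 15.0, 12.2 and 14.6 CPM (0.91, SE 0.31). For the 6 genes with higher values the double-heterozygous minus Gata5-null differences lay between -0.24 (Ppp1r26) and 0.24 (Nrp2), each with an interval that includes 0. The 12 genes of this rank were named because their groups did not overlap, so the lack of overlap is no further support.

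**Figure D3:**
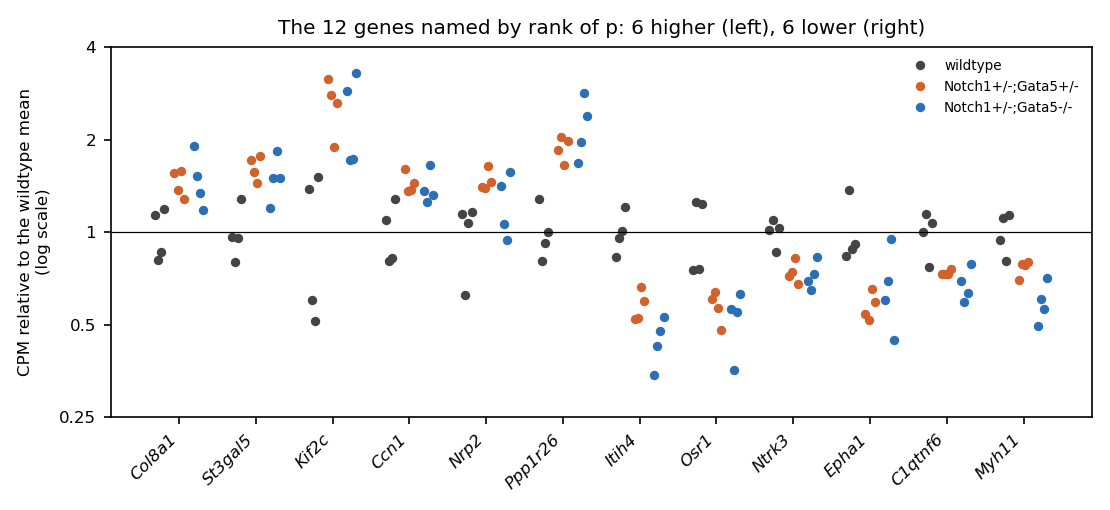
CPM relative to the wildtype mean (vertical axis, log scale) for the 12 genes named by rank of p, 1 point per library in each of the 3 groups. For the 6 genes on the left the double-heterozygous libraries lie above all wildtype libraries, and for the 6 on the right below all of them.

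Smooth muscle contractile genes lay lower in double-heterozygous valves, by small amounts that passed no test over all genes. Of 22 members, all tested, 18 had a log2 fold change below 0 (49.7% of all genes tested did) and the median was -0.21, beside 0.0018 over all genes. Of these members 0 were called, 7 were lower at an unadjusted p under 0.05 (0.445% of all genes) and 4 had no overlap between the groups (0.915%). The list was drawn up knowing that it was lower in the Gata5-null valves of these same data, so its direction is not independent evidence. The number at an unadjusted p under 0.05 was 4 without wildtype replicate 2, the library with the most genes at 0, and the number below 0 ran from 15 to 21 over the settings tried.

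Myh11, the smooth muscle myosin heavy chain, was at 2226, 2619, 1901 and 2683 CPM in wildtype replicates 1 to 4 and at 1648, 1857, 1840 and 1891 CPM in the double-heterozygous libraries (log2 fold change -0.38, SE 0.12, 95% interval -0.64 to -0.13). Mylk, the kinase that phosphorylates myosin light chains to start contraction, was at 426, 489, 383 and 471 CPM against 335, 356, 340 and 355 CPM (-0.35, SE 0.12). All double-heterozygous values of these 2 genes lay below the lowest wildtype value, by a narrow margin of 1891 against 1901 CPM for Myh11. Tpm2, the beta-tropomyosin of thin filaments, was at 245, 285, 184 and 279 CPM against 185, 188, 195 and 190 CPM (-0.39, SE 0.14). Here wildtype replicate 3 lay below the double-heterozygous libraries, so the groups overlapped.

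The other members without overlap, Myl6 and Synpo2, were chosen after their values were seen. Myl6, the essential myosin light chain of smooth muscle and non-muscle cells, was at 373, 423, 361 and 349 CPM in wildtype and 346, 312, 278 and 267 CPM in double-heterozygous libraries (log2 fold change -0.32, SE 0.12). Synpo2, an actin-bundling protein of muscle, was at 364, 410, 345 and 400 CPM against 286, 314, 292 and 334 CPM (-0.31, SE 0.13). Acta2, Cnn1 and Tagln overlapped between the groups. Acta2, smooth muscle alpha-actin, was at 1302, 1552, 1172 and 1744 CPM against 1090, 1234, 1073 and 1294 CPM (-0.30, SE 0.14, or -0.19 without wildtype replicate 4). Cnn1, the actin-binding calponin 1, differed by -0.35 (SE 0.14), and Tagln, the actin-binding transgelin, by -0.26 (SE 0.13, 95% interval -0.53 to 0.00).

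Double-heterozygous valves lay between wildtype and Gata5-null valves for several of these genes, and the difference between both mutant groups was tested directly. edgeR's quasi-likelihood test of double-heterozygous against Gata5-null valves called 0 genes (0%), with 616 of 19346 at an unadjusted p under 0.05 (3.18%), 403 higher (2.08%) and 213 lower (1.10%) in double-heterozygous valves. Gata5 itself, at 0 counts in every Gata5-null library, was not called by this test (log2 difference 9.33, SE 1.76, adjusted p = 0.56). A count of 0 calls from this fit therefore does not show that no gene differs. Of the 22 contractile genes 7 were higher in double-heterozygous valves at that unadjusted threshold and 0 lower, with a median difference of 0.20. The differences were 0.52 for Synpo2 (SE 0.13), 0.46 for Cnn1 (SE 0.14), 0.40 for Mylk (SE 0.12), 0.39 for Tagln (SE 0.13) and 0.37 for Myh11 (SE 0.12). Myl6 differed by 0.00 (SE 0.12) and Tpm2 by 0.10 (SE 0.14) between the mutant groups. Both comparisons use the same double-heterozygous libraries, so they are not independent. The contractile list was drawn up knowing that it was lower in these Gata5-null valves. A list higher in double-heterozygous than in Gata5-null valves is therefore no independent evidence either.

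Other smooth muscle lists had medians near 0. Of 12 transcriptional regulators of smooth muscle 7 were above 0 with a median of 0.01, and 0 had an unadjusted p under 0.05 in either direction. Among 14 mural receptors and channels, 7 lay above and 7 below 0 (median -0.01). Of these 1, Itga8, was lower at an unadjusted p under 0.05 (0.445% of all genes). The mural integrin subunit Itga8 was at 803, 1040, 777 and 1036 CPM in wildtype and 662, 780, 812 and 708 CPM in double-heterozygous libraries, with overlap (-0.30, SE 0.14). Heart muscle in the pools varied: the summed CPM of 27 ventricular genes was 28680 to 63150 in wildtype and 35660 to 70010 in double-heterozygous libraries. With a heart muscle score as a covariate the median of the contractile list was -0.23.

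**Figure D4:**
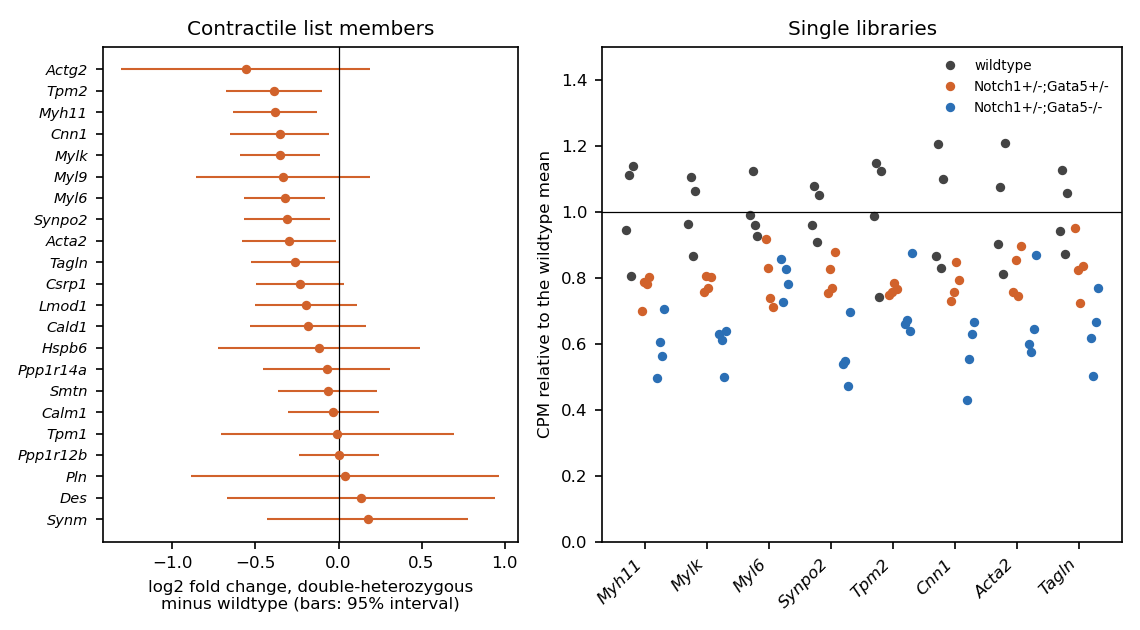
Left, log2 fold change of the 22 contractile genes (double-heterozygous minus wildtype, horizontal axis) with 95% intervals. Right, CPM relative to the wildtype mean (vertical axis) for 8 of them, 1 point per library. All double-heterozygous libraries lie between the wildtype and the Gata5-null libraries for Mylk. For Acta2 and Tpm2 the wildtype and Gata5-null libraries themselves overlap.

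The promoters of the contractile list were searched for the CArG box, the motif bound by serum response factor at smooth muscle genes. It was found within 250 bases before to 50 after the start for 2 of the 18 members with a promoter in the table (11.1%), against 535 of 32851 promoters (1.63%). Both are light chain genes and are shown with the CArG box in capitals (RefSeq, GRCm38.p6), Myl6 on the minus strand at chr10:128492960-128493259 and Myl9 on the plus strand at chr2:156775214-156775513.
Myl6: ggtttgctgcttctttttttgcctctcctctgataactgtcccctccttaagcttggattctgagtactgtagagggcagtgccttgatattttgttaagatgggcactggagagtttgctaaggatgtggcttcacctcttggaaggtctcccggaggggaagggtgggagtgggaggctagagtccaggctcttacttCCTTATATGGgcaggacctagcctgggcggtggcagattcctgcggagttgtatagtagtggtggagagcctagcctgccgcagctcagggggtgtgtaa
Myl9: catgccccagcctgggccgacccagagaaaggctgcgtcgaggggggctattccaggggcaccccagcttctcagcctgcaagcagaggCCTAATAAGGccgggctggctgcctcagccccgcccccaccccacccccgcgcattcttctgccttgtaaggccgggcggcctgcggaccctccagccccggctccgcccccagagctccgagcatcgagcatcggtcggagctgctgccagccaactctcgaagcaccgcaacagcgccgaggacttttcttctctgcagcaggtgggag
Myl9, the regulatory light chain of smooth muscle myosin and chosen after its values were seen, was at 170, 231, 184 and 274 CPM in wildtype and 178, 139, 139 and 226 CPM in double-heterozygous libraries. The groups overlapped (log2 fold change -0.33, SE 0.24, or -0.19 without wildtype replicate 4), and Myh11, Mylk and Synpo2, which did not overlap, were not among the matches. No match says only that these letters are not in this window. The GATA hexamers searched at Itih4 matched 4 of the 18 members with a promoter (22.2%), against 29.8% of all promoters. A list member counts if any of its promoters matches, while all promoters are counted singly. The shares are therefore not measured alike.

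Elastin was also lower on average. Eln, which took 7.55% to 9.68% of all counts in double-heterozygous and 8.36% to 12.5% in wildtype libraries, was at 91613, 122545, 85385 and 133277 CPM in wildtype and 71115, 86528, 87119 and 101414 CPM in double-heterozygous valves. The groups overlapped, since wildtype replicate 3 lay below 3 of the double-heterozygous libraries (log2 fold change -0.32, SE 0.15, 95% interval -0.64 to -0.01, or -0.20 without wildtype replicate 4). Of 18 elastic fibre genes 7 were above and 11 below 0 (median -0.06), and Eln alone had an unadjusted p under 0.05. Tgfb2, a TGF-beta ligand of cushion and arterial wall, was at 90.6, 128, 87.2 and 131 CPM against 92.4, 81.6, 91.5 and 87.8 CPM, a tight double-heterozygous group beside the 2 lower wildtype libraries (-0.31, SE 0.17). Of 30 BMP and TGF-beta genes 13 were above 0 (median -0.02), and 0 had an unadjusted p under 0.05.

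Of 20 collagens outside the fibrillar group 14 were above 0 (50.3% of all genes), with a median of 0.13 that was 0.35 without wildtype replicate 4. At an unadjusted p under 0.05 stood 4 higher (0.806% of all genes) and 1 lower (0.445%), and 3 higher (1.32%) and 2 lower (0.915%) had no overlap. Leaving out wildtype replicate 1 made the 4 higher genes 2, and leaving out replicate 3 of either group made them 1. Col14a1, a fibril-associated collagen, was at 1435, 1682, 1313 and 1746 CPM in wildtype and 1125, 1238, 1296 and 1288 CPM in double-heterozygous libraries, so the highest double-heterozygous library stood just under the lowest wildtype one (-0.32, SE 0.12). Col22a1, a collagen of tissue junctions, was at 12.5, 9.76, 7.55 and 9.16 CPM against 12.5, 18.0, 28.1 and 14.4 CPM (0.91, SE 0.37), groups that meet at 12.5 CPM. Of 14 fibrillar collagens 9 were above 0 (median 0.07) and 0 had an unadjusted p under 0.05. Col1a1, the main collagen of valve fibrosa, was at 0.10 (SE 0.13, 95% interval -0.16 to 0.36).

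Of 29 hyaluronan and proteoglycan genes tested, 17 were above 0 (median 0.13), and the pair with an unadjusted p under 0.05 consisted of inter-alpha-trypsin heavy chain genes that lay in opposite directions. Itih4 was the lower of the pair, and Itih5 was at 201, 226, 238 and 256 CPM in wildtype against 344, 270, 297 and 272 CPM in double-heterozygous libraries, without overlap (0.36, SE 0.14). Vcan, the large proteoglycan of the valve spongiosa, was at 552, 616, 536 and 601 CPM against 717, 674, 615 and 620 CPM (0.19, SE 0.12), with overlap between 615 and 616 CPM.

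Cartilage-like genes lay mostly higher in double-heterozygous valves. Of 22 listed genes 19 were tested, 16 of these were above 0 (50.3% of all genes) and the median log2 fold change was 0.43, or 0.23 without double-heterozygous replicate 1. At an unadjusted p under 0.05 stood 1 of them, Col9a3, which was higher (0.806% of all genes were). With 1 of the 8 libraries left out this count was 0, except without double-heterozygous replicate 2, where it stayed at 1. It was 6 in limma-voom with quality weights. The interval lay within 1 of 0 for 5 of the 19 genes. Col9a3 and Comp were higher (1.32% of all genes) and Col10a1 lower (0.915%) without overlap. Col9a3, a fibril-associated collagen of cartilage, was at 13.8, 15.6, 12.5 and 17.4 CPM in wildtype and 36.0, 22.1, 25 and 24.6 CPM in double-heterozygous libraries (0.86, SE 0.40). Comp, cartilage oligomeric matrix protein, was at 37.8, 46.4, 45.4 and 26.8 CPM against 92.0, 55.1, 56.8 and 52.7 CPM (0.71, SE 0.39). Double-heterozygous replicate 1 was the highest library for both.

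Sox9, the transcription factor that drives cartilage genes and is active in valve cushions, was at 15.3, 13.2, 16.8 and 20.9 CPM in wildtype and 30.3, 15.4, 25.3 and 21.0 CPM in double-heterozygous libraries (log2 fold change 0.48, SE 0.30). Col2a1, the main cartilage collagen, was at 59.6, 119, 77.2 and 60.0 CPM against 183, 106, 153 and 125 CPM (0.84, SE 0.51). Both overlapped between the groups and both intervals include 0. Col10a1 of hypertrophic cartilage, chosen after its values were seen, went against the list at 4.68, 6.76, 4.60 and 7.46 CPM against 4.58, 3.69, 4.08 and 2.23 CPM, without overlap (-0.69, SE 0.60). Over the 19 genes the median of the double-heterozygous minus Gata5-null difference was -0.12, and Sox9 differed by 0.49 (SE 0.30).

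Of 15 mineralization genes 10 were above 0, with a median of 0.12 and 0 at an unadjusted p under 0.05. Alpl, the tissue-nonspecific alkaline phosphatase of mineralizing matrix, was at 1.35, 2.49, 4.71 and 4.66 CPM in wildtype and 5.52, 5.26, 6 and 10.8 CPM in double-heterozygous libraries, without overlap (1.06, SE 0.68, 95% interval -0.35 to 2.47). Among 24 matricellular genes 19 were above 0 (median 0.10) and Ccn1 had the smallest p. Postn, periostin of the valve matrix, was at 0.07 (SE 0.10, 95% interval -0.14 to 0.28). Of 29 proteases and inhibitors 15 were above 0 (median 0.01). Timp3, an inhibitor of metalloproteinases, was at 524, 627, 607 and 609 CPM against 825, 691, 658 and 668 CPM, without overlap (0.26, SE 0.13).

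Of 10 Notch receptors and ligands tested, 5 were above and 5 below 0 (median 0.05), with estimates from -0.25 to 1.38 and an interval within 1 of 0 for 7, and Notch1 alone had an unadjusted p under 0.05. The receptor Notch2 was at 227, 259, 220 and 241 CPM in wildtype and 236, 225, 266 and 198 CPM in double-heterozygous libraries (-0.03, SE 0.14), and the mural cell receptor Notch3 differed by -0.13 (SE 0.14). Jag1, a ligand of smooth muscle and endothelium, was at 106, 120, 74.7 and 113 CPM against 92.7, 77.5, 97.9 and 79.5 CPM (-0.25, SE 0.16), and the arterial ligand Dll4 was at -0.20 (SE 0.33). The groups overlapped for each of these 4 genes.

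Of 27 Notch targets and modulators 11 were above 0 (median -0.04, or 0.04 without wildtype replicate 4), 20 had an interval within 1 of 0, and Lfng alone had an unadjusted p under 0.05. Lfng and Rfng encode fringe glycosyltransferases, which set how Notch receptors respond to their ligands. Lfng was at 6.08, 7.23, 5.59 and 2.75 CPM in wildtype and 6.82, 11.4, 9.63 and 12.7 CPM in double-heterozygous libraries (0.90, SE 0.44). Rfng was at 12.4, 11.4, 24.6 and 6.61 CPM against 6.87, 6.17, 9.63 and 10.2 CPM (-0.74, SE 0.41, or -0.30 without wildtype replicate 3). Both overlapped between groups. Of the direct Notch target genes, Hey1 was at -0.23 (SE 0.36) and Heyl, a target in mural cells, at -0.13 (SE 0.15, 95% interval -0.44 to 0.19). The letters TGGGAA, the core bound by RBPJ, searched on both strands, occurred in 11 of the 22 list members with a promoter and in 25.6% of all promoters. GATA hexamers occurred in 4 of these 22 members (18.2%), against 29.8% of all promoters. Members are again counted by gene and the background by promoter, so the shares are not measured alike.

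Of 21 GATA factors and cardiac partner factors 9 were above 0 (median -0.03, or 0.14 without wildtype replicate 4), with estimates from -0.97 to 2.18 and an interval within 1 of 0 for 11. Hand2 lay higher and Foxc2 lower at an unadjusted p under 0.05. Gata4 was at 102, 112, 121 and 131 CPM in wildtype and 120, 127, 128 and 132 CPM in double-heterozygous libraries (0.12, SE 0.12, 95% interval -0.13 to 0.38). Gata6 differed by -0.10 (SE 0.15) and Tbx20, a T-box factor of the valve, by 0.16 (SE 0.12). For Gata4 and Gata6, the factors nearest to Gata5 in kind, an increase or loss of 2-fold lies outside the interval.

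Hand2, a helix-loop-helix factor of the outflow tract, was at 30.0, 28.8, 38.0 and 36.1 CPM in wildtype and 39.2, 49.6, 34.9 and 55.8 CPM in double-heterozygous libraries (0.43, SE 0.19). Foxc2, a forkhead factor of flow-exposed endothelium, was at 15.4, 37.3, 16.2 and 22.5 CPM against 15.4, 8.24, 18.8 and 13.4 CPM (-0.71, SE 0.33, or -0.37 without wildtype replicate 2). Tbx2, a T-box repressor of chamber genes, was at 14.6, 6.48, 9.93 and 8.86 CPM against 12, 12.4, 15.1 and 24.1 CPM (0.68, SE 0.33, or 0.40 without double-heterozygous replicate 4). In all 3 the groups overlapped.

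Valve cell markers were mostly slightly above 0. Of 21 valve interstitial and fibroblast genes 18 were above 0, with a median of 0.14, and 1 had an unadjusted p under 0.05. That gene, Wif1, a secreted Wnt inhibitor, was at 40.5, 39.0, 40.6 and 35 CPM in wildtype and 93.7, 38.6, 45.3 and 58.3 CPM in double-heterozygous libraries (0.60, SE 0.23, or 0.29 without double-heterozygous replicate 1). Of 28 endothelial genes 21 were above 0, with a median of 0.13 that was 0.05 without double-heterozygous replicate 4, and 0 had an unadjusted p under 0.05.

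Nfatc1, the transcription factor of valve endocardium, was at 22.5, 20.1, 24.1 and 31.1 CPM in wildtype and 36.0, 35.1, 28.1 and 23.1 CPM in double-heterozygous libraries (0.32, SE 0.22, 95% interval -0.13 to 0.77). In the Gata5-null libraries it was at 39.4, 46.9, 53.6 and 30.5 CPM, and the double-heterozygous minus Gata5-null difference was -0.48 (SE 0.22, 95% interval -0.93 to -0.03). Flt1, a VEGF receptor of endothelium, was at 0.29 (SE 0.18) against wildtype, Pecam1, an adhesion molecule of endothelium, at 0.19 (SE 0.16) and Cdh5, VE-cadherin, at 0.14 (SE 0.17).

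Genes of other cell types varied widely between pools of the same genotype. Of 15 atrial genes 14 were tested, and 11 were below 0 with a median of -0.66 and 0 at an unadjusted p under 0.05. Without wildtype replicate 3 the median was -0.15, and without double-heterozygous replicate 1 it was -0.37, again with 0 at that threshold. Without double-heterozygous replicate 4 it was -0.90, with 7 lower, and with wildtype replicate 2 also left out 8 were lower. Limma-voom with quality weights counted 9 lower, and 856 of all genes in either direction. Over all genes the edgeR fit with no library left out counted 242 of 19346 in either direction (1.25%), of which 86 were lower (0.445%). The pair of libraries was chosen after seeing the data, and counts over all genes with libraries left out are given at the end. Myl7, the atrial regulatory light chain, was at 149, 37.1, 205 and 36.5 CPM in wildtype and 16.0, 19.5, 16.5 and 162 CPM in double-heterozygous libraries. Its log2 fold change was -0.997 (SE 1.12), -2.62 without double-heterozygous replicate 4 and -0.47 without wildtype replicate 3. Sln, the sarcolipin of atrial muscle, was at 26.5, 12.2, 75.7 and 7.01 CPM against 2.97, 10.3, 4.03 and 40.3 CPM (-1.07, SE 0.997), with -2.40 and -0.08 in the same order without these libraries. High atrial values thus occurred in wildtype replicates 1 and 3 and in double-heterozygous replicate 4.

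Nppa, the atrial natriuretic peptide gene, was at 66.2, 51.2, 64.8 and 48.5 CPM in wildtype and 17.6, 34.2, 45.5 and 54.1 CPM in double-heterozygous libraries (-0.61, SE 0.32), and Stard10, a lipid transfer protein on the atrial list, was at -0.81 (SE 0.42). Of 27 ventricular genes 20 were above 0 with a median of 0.10, which was -0.14 without wildtype replicate 2 and -0.13 without double-heterozygous replicate 4. With both left out, all 27 were below 0 and 6 were lower at an unadjusted p under 0.05. This pair was chosen after seeing the data. Over all genes 0.445% were lower at that threshold with no library left out, and the count with this pair left out is given at the end. Myh6 was at 0.23 (SE 0.36), and at -0.20 with both left out. The 7 mitochondrially encoded genes in the table were all above 0 (median 0.16), with a median of -0.03 without wildtype replicate 2. Of 29 nuclear genes of oxidative phosphorylation 12 were above 0 (median -0.02, or -0.22 without wildtype replicate 2), with every estimate between -0.21 and 0.13 over all libraries.

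Pigment cell genes differed among themselves. Tyrp1, a melanin synthesis enzyme, was at 2.60, 11.7, 7.55 and 4.21 CPM in wildtype and 22.5, 12.6, 13.4 and 12.3 CPM in double-heterozygous libraries, without overlap (1.22, SE 0.46). Dct, dopachrome tautomerase of the same pathway, was at 38.7, 59.9, 34.7 and 39.5 CPM against 60.5, 55.2, 48.5 and 51.2 CPM (0.32, SE 0.26). Kit, the receptor tyrosine kinase of pigment and mast cells, lay lower without overlap, at 10.5, 16.6, 11.8 and 13.8 CPM against 9.06, 2.98, 9.47 and 9.71 CPM (-0.76, SE 0.37, or -0.49 without double-heterozygous replicate 2). Of 11 melanocyte genes tested 8 were above 0 (median 0.17, or 0.48 without wildtype replicate 2), and the summed CPM of the list was 110.9 to 142 in wildtype and 130 to 159 in double-heterozygous libraries.

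Cbr2, a carbonyl reductase of resident macrophages, was at 52.6, 73.4, 47.1 and 41.3 CPM in wildtype and 46.5, 28.5, 39.8 and 39.2 CPM in double-heterozygous libraries (-0.48, SE 0.22, or -0.29 without wildtype replicate 2). It was at 18.6 to 33.5 CPM in Gata5-null valves, with a double-heterozygous minus Gata5-null difference of 0.71 (SE 0.22). The 18 macrophage genes were even, with 9 above and 9 below 0 (median 0.02). Fos, an immediate-early gene switched on by growth factors and by handling of tissue, was at 3.28, 3.99, 4.96 and 1.15 CPM against 8.17, 11.9, 8.27 and 5.78 CPM, without overlap (1.35, SE 0.49), and Egr1, of the same class, was at 0.57 (SE 0.26) with overlap. Of all 22 immediate-early and stress genes 12 were above 0 (median 0.05).

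**Figure D5:**
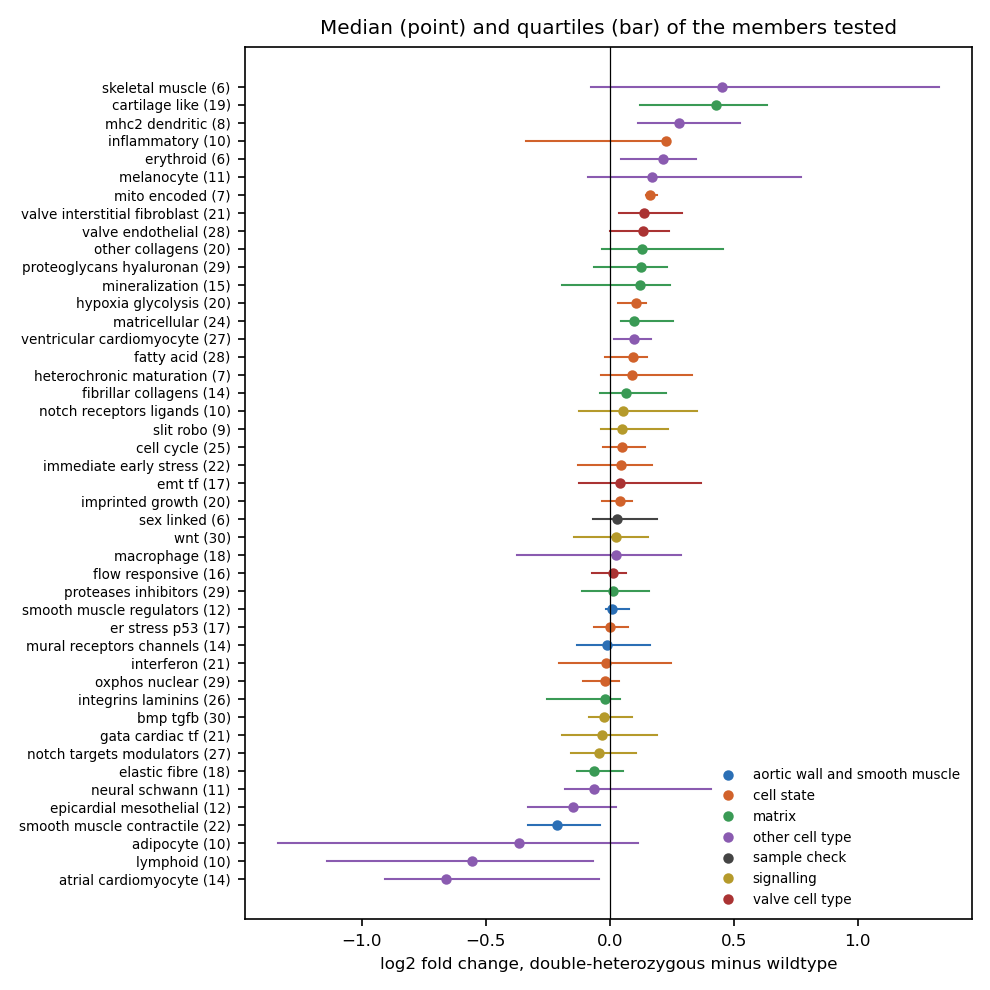
Median (point) and quartiles (bar) of the log2 fold change, double-heterozygous minus wildtype (horizontal axis), for each gene list with at least 6 members tested, their number in brackets, coloured by kind of list. The contractile list stands at -0.21 and the cartilage-like list at 0.43, with the widest bars in lists of few, low genes such as the lymphoid list at -0.55.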

How the data were processed

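Poly-A RNA was sequenced from 12 pools of 3 valves. The submitters' processing notes name Trim Galore, STAR 2.7.10b, the GRCm39 build and DESeq2 1.34.0. How reads were assigned to genes, including the strand setting, is not given in the sources used here, so genes that overlap on opposite strands may share reads. The deposited table holds raw counts of 20620 genes, and total counts were 13866604 to 25059653 per library. The authors also deposited a table of log2 fold changes with no comparison named. A DESeq2 refit of Gata5-null against wildtype matched it within 0.0001655 and one of double-heterozygous against wildtype did not (8.652), so only its symbols were used: 13959, with 6077 more from a reference annotation and 584 genes left without one.

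The counts were fitted with edgeR 4.0.16 in R 4.3.3 (TMM, filterByExpr, robust quasi-likelihood fit). All 12 libraries entered 1 fit with a term per group, which kept 19346 genes and removed 1274. The Benjamini-Hochberg adjustment of p-values covered all of these, and the SE and 95% interval come from the quasi-likelihood F statistic. Nothing says that the pools came from separate litters or days, so p-values measure the spread between pools. Floors cover counting error only. The 2 targeted genes were also tested by exact permutation over 35 splits. The script was tested on simulated data with less spread than these libraries. That test therefore does not show what differences could be missed here.

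The members and the 47 gene lists (852 genes) were chosen with earlier results of these data known. Genes named are Notch1, Gata5, the 6 per direction of smallest p without overlap and with mean log2 CPM no lower than 1, anchors of the lists, and up to 3 members of smallest p per list. Gene lists were described by counts and medians, with no set test. Alternatives were RLE and upper-quartile scaling, no filter, a stricter filter (CPM of 1 or more in 4 or more libraries), DESeq2 1.42.0, limma-voom (limma 3.58.1), plain or with quality weights, only the 8 libraries, each library left out, the replicate number as a block, the authors' thresholds, and 3 covariates (heart muscle, Y-linked genes, number of genes at 0). Leaving out pairs of libraries was added after seeing the data.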

Additional observations from a re-analysis of the deposited data

Results flagged for a closer look

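In 10 of 138 groups of 4 libraries, 1 library stood far from the other 3, with a gap to its nearest neighbour of more than 0.829 of the group's range. Chance flags about 1 in 20 groups. Double-heterozygous replicate 4 stood apart for 4 genes: Gata5 at 0.728 CPM (next 4.94 CPM), Myl7 at 162 CPM (next 19.5 CPM), Alpl at 10.8 CPM (next 6 CPM) and C1qtnf6 at 110 CPM (next 106 CPM). It is also the library with almost no Xist, and what part that has in these values was not tested. Double-heterozygous replicate 1 stood apart for Comp at 92.0 CPM (next 56.8 CPM) and Tyrp1 at 22.5 CPM (next 13.4 CPM), and double-heterozygous replicate 2 for Kit at 2.98 CPM (next 9.06 CPM). In wildtype, replicate 2 stood apart for Epha1 at 42.4 CPM (next 28.3 CPM), replicate 4 for Heyl at 200 CPM (next 150 CPM) and replicate 3 for Gata6 at 82.0 CPM (next 103 CPM).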

How the results depend on the processing

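Double-heterozygous against wildtype gave 0 calls in edgeR and limma-voom under every setting run (0 to 0 with 1 library left out) and 8 in DESeq2. At an unadjusted p under 0.05, edgeR counted 255 genes with RLE scaling, 400 with no filter, 172 with the stricter filter, 440 with only the 8 libraries, 534 without Gata5-null replicate 3, 502 without it and wildtype replicate 2, 370 without double-heterozygous replicate 4 and wildtype replicate 2, 400 with genes at 0 as covariate, and 264 to 423 with 1 of the 8 libraries left out. Limma-voom counted 408, and 856 with quality weights. Double-heterozygous against Gata5-null gave 13 calls in DESeq2. They were Gata5 itself (8.65), Synpo2 (log2 difference 0.49, DESeq2 adjusted p = 0.0485) and genes with log2 differences of 6.43 or more in size. In edgeR the same comparison gave 1 without Gata5-null replicate 3 and 1 with the covariate of genes at 0 (the platelet gene Gp1bb in both). It gave 2 without wildtype replicate 2 and Gata5-null replicate 3 (Gata5 and Gp1bb), and 0 to 0 with 1 of the 8 libraries left out. Of 69 genes 64 kept the sign of their log2 fold change in all 23 settings. The exceptions were Notch2 (0.0276 with quality weights, 0.0101 with the covariate of genes at 0, 0.0115 without wildtype replicate 2 and Gata5-null replicate 3, 0.0793 without double-heterozygous replicate 4 and wildtype replicate 2, and -0.105 to 0.0364 with 1 library left out), Dll4 (0.0333) and Myh6 (-0.20) in the last of these pairs left out, and, with 1 library left out, Heyl (-0.22 to 0.0029) and Col1a1 (-0.001 to 0.21). The cause was not tested.

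Replicates share a number across groups, but same-numbered libraries did not deviate together (correlations 0.026, 0.012, -0.013 and 0.095), so the number was not taken as a pairing. With the replicate number as a block the count of calls stayed at 0, with 267 genes at an unadjusted p under 0.05. With 4 pools per group, 37.0% of the genes at a mean log2 CPM of at least 1 have an interval that reaches a 2-fold difference, and genes of low counts, such as Gata5, allow no statement on the loss of 1 copy.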
